A study of Danio rerio with 12 samples.

Results

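Very wide stretches of open chromatin in zebrafish gastrula embryos are described here, namely all regions of at least 4000 bp on chromosomes 1 to 25 without chromosome 4. Regions were chosen by width alone, each deposited table by its own coordinates, which gave 173 of 35040 regions in the TDCIPP table and 421 of 45019 in the decitabine (DAC) table. The assay was ATAC-seq, which reads out where a transposase can reach DNA, on whole wild-type embryos of AB/Tuebingen stock at 6 hours post fertilization. The 12 libraries fall into 4 groups of 3: embryos in 3.12 µM TDCIPP, an organophosphate flame retardant, embryos in 100 µM DAC, a nucleoside that blocks maintenance of DNA methylation, and for each compound a group of its own in 0.1% DMSO, the solvent. Treatment began with newly fertilized eggs, and all groups share stage, stock and genotype. The labels number the libraries but name no clutch, so the authors' p-values cover only variation among these libraries, part or all of which may be technical. In whole embryos, a change in the number of cells with an open region and a change in openness per cell cannot be told apart.

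Most open regions of an animal genome are single promoters or enhancers that span a few nucleosomes. Much wider ones are known as background at promoters of developmental regulators inside long unmethylated domains, at clustered enhancers that merge into 1 domain, and over arrays of genes present in many copies. A consensus region of DiffBind joins the overlapping peaks of several libraries, so a wide region can be 1 broad plateau or a chain of peaks. The width was thus set by peak calls on these same libraries, while the folds of treatment were not used to choose members. Each region has a level, the log2 of the mean normalized reads counted over its whole width, so a wide region collects more reads than a narrow one of the same density. Values are therefore given both as reads per region and as reads per kb. Coordinates are on GRCz11, and genes, repeats and sequences under the regions were not analysed here. The tables were normalized separately, so reads are compared only within a table, and they hold group means without an SD.

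Most members lay close to the minimum width, and a few were more than 10 times wider. Their median width was 4797 bp in the TDCIPP table (quartiles 4407 to 6320 bp) and 4862 bp in the DAC table (4394 to 6802 bp), against 1171 and 1130 bp for regions of 500 to under 4000 bp. In the TDCIPP table, 100 members were under 5000 bp wide and 12 reached 10000 bp, against 228 and 52 members of the DAC table. The widest of both tables lay at the same place of chromosome 20, at 25759406 to 25824004 (64599 bp) in the TDCIPP table and at 25764946 to 25824051 (59106 bp) in the DAC table. Chromosome 5 held the second widest of both tables, at 43142560 to 43184939 (42380 bp) and at 43140535 to 43187187 (46653 bp). Another place, on chromosome 22 at 21190756 to 21223214 (32459 bp), came back in the DAC table at 21189759 to 21223213 (33455 bp). These 3 places were thus called in both tables at similar widths. So was the fourth widest TDCIPP member, on chromosome 5 from 43260108, with 18041 bp against 20605 bp in the DAC table. The rest of the 5 widest in each table were not. DAC members of 38422 bp on chromosome 12, from 14404045, and of 37804 bp on chromosome 21, from 45450213, each covered 5 TDCIPP regions. A TDCIPP member of 17036 bp on chromosome 10, from 12109557, lay over a DAC region of 31799 bp.

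Densities just inside and just outside the width minimum overlapped. The 3 narrowest members of the TDCIPP table, 4001 to 4038 bp wide, had 79.3, 64.8 and 100.2 reads per kb, and the 3 widest regions just outside, 3991 to 3994 bp wide, had 137, 57.8 and 2010.4 reads per kb. In the DAC table, the 3 narrowest members (4002 to 4008 bp) had 12.5, 13.8 and 12.4 reads per kb, and the 3 regions just outside (from 3997 bp) had 13.6, 11.8 and 8.01 reads per kb.

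Few in number, the wide regions held a larger share of bases and of reads. The share of bases follows from the choice by width, and reads are counted over the whole width. In the TDCIPP table the wide regions were 0.628% of the 27561 regions on these chromosomes, 3.03% of the bases inside regions and 6.59% of the normalized reads. In the DAC table they were 1.17% of 35997 regions, 6.11% of the bases and 19.1% of the reads. They covered 1113 kb in the TDCIPP table and 2915 kb in the DAC table. Of the 100 regions with the highest level, 24 were members by TDCIPP coordinates, and 52 of the like 100 by DAC coordinates. Every one of the 24 chromosomes held at least 1 member in each table. The share of regions that were wide ran from 0.0884% on chromosome 17 to 1.65% on chromosome 24 in the TDCIPP table, and from 0.59% on chromosome 19 to 2.08% on chromosome 5 in the DAC table. Chromosome 17, with 1 member in the TDCIPP table, held 20 in the DAC table.

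Density varied far more among members than width did. In the TDCIPP table, members had from 10.5 to 7885 normalized reads per kb, with a median of 139 (quartiles 54.2 to 316), against a median of 71.7 for regions of 500 to under 4000 bp. In the DAC table the range was 2.00 to 3115 reads per kb with a median of 13.4 (quartiles 11.0 to 31.1), against 15.1 for the narrower regions. Members of the TDCIPP table were thus denser than narrower regions by their median, and those of the DAC table were not. The densest member of the TDCIPP table was at chromosome 5, 822561 to 826892, where TDCIPP libraries averaged 31872 normalized reads and their DMSO controls 36611. Its counterpart in the DAC table, at 822360 to 827348, had 2008 reads per kb and was the second densest there. The densest member of the DAC table lay on chromosome 7 at 53011060 to 53015214, with 12077 normalized reads in DAC and 13777 in DMSO. It has a dense counterpart of 3991 bp in the TDCIPP table, which misses the width minimum by a few bases. At the other end, the faintest members of the DAC table were on chromosome 9, at 15806836 to 15811159 and at 15795570 to 15799686, with 8.94 and 10.3 normalized reads in DAC over the whole region. The faintest of the TDCIPP table was on chromosome 20 at 55185652 to 55192647, with 79.9 reads in TDCIPP and 66.7 in DMSO. Across members, width and reads per kb had a Spearman rho of -0.07 in the TDCIPP table (173 regions) and 0.16 in the DAC table (421 regions), given as a description, since both share the same libraries and peak calls.

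**Figure D1:**
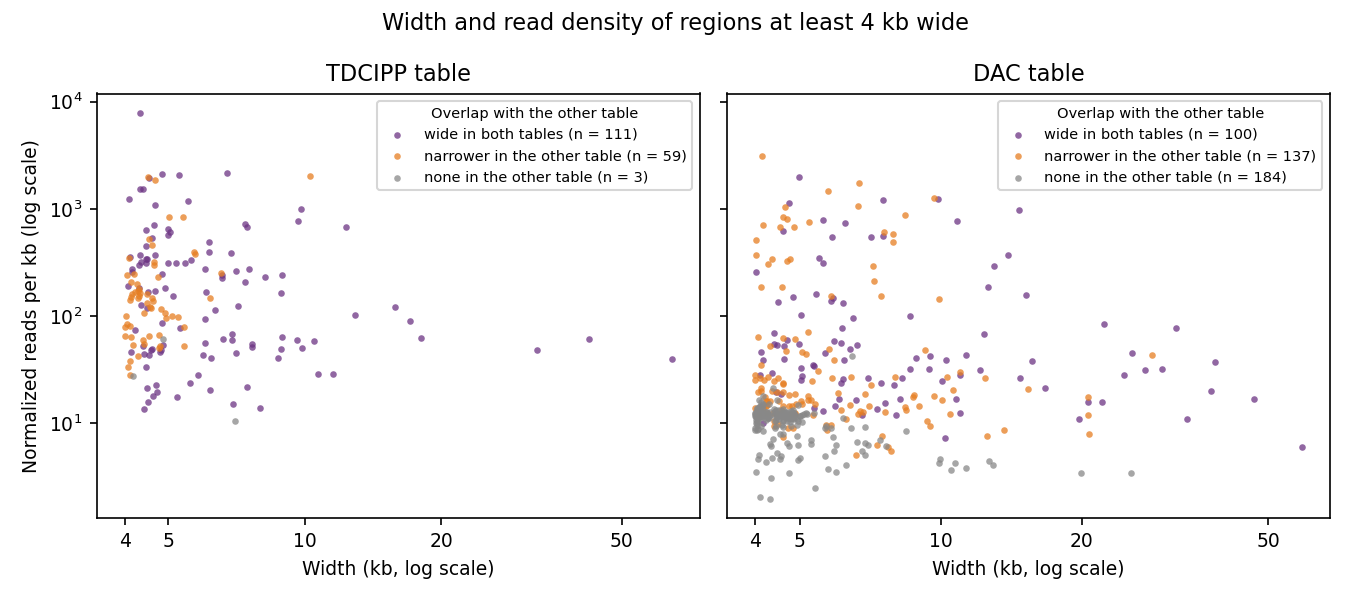
Width (kb, log scale) against mean normalized reads per kb (log scale) for every region of at least 4000 bp, in the TDCIPP table (left, 173 regions) and the DAC table (right, 421 regions). Colours give what overlaps the region in the other table, and the 184 DAC members with no counterpart gather near 11 reads per kb and under 5000 bp.

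Overlap with the other table split the members into 3 kinds. Of the 173 members of the TDCIPP table, 170 (98.3%) shared at least 1 base with a DAC region, and 111 (64.2%) with a DAC region that was itself at least 4000 bp wide. The other 59 lay over DAC regions that were all narrower, with a median width of 1995 bp. Of the 421 members of the DAC table, 237 (56.3%) overlapped a TDCIPP region and 100 (23.8%) overlapped a wide one. A further 137 lay over narrower TDCIPP regions, and 184 had no TDCIPP region at all. Overlap was not counted for narrower regions, so none of these shares can be called particular to wide ones. Of the 237 DAC members with a counterpart, 78 covered 2 or more TDCIPP regions, up to 11 in 1 member. Of the 170 TDCIPP members with a counterpart, 31 covered 2 or 3 DAC regions. Among members with a counterpart, the share was thus larger in the DAC table. Taken over all 421 and all 173 members the shares were alike, but 184 of the 421 had no TDCIPP region to cover. TDCIPP members had 87.3% of their bases inside DAC regions, and DAC members had 46.3% of theirs inside TDCIPP regions.

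The 184 DAC members without a counterpart were mostly faint. Their median was 11.3 reads per kb (quartiles 7.66 to 12.4), 131 of them had 8 to under 16 reads per kb, and 143 were under 5000 bp wide. In all, 187 DAC members were of that density, so it was not theirs alone. Most of them, 148, had no other member within 50 kb. DAC members that were wide in both tables had a median of 39.3 reads per kb and 6696 bp, and those over narrower TDCIPP regions 19.4 reads per kb and 5141 bp. The part of density and width in this difference between the kinds was not tested.

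Members also gathered in runs. Joined across gaps of at most 50 kb, the TDCIPP members made 127 places, of which 104 held a single member, 15 held 2 and 8 held 3 or more. The DAC members made 290 places, 238 of them with a single member, 25 with 2 and 27 with 3 or more. Runs of at least 3 held 39 TDCIPP members (22.5%) and 133 DAC members (31.6%). Chromosome 24 had the run with the most TDCIPP members, 11 between 12421853 and 12555446, and the DAC table held 9 members there from 12402318 to 12556080. On chromosome 5, 7 TDCIPP members lay between 43142560 and 43278148 and covered 93.4 kb of 136 kb, and 9 DAC members lay between 43119833 and 43279361. Chromosome 12 had a pair of runs seen in both tables, each with 4 TDCIPP members, from 14380654 to 14442290 and from 41377680 to 41408376. Other DAC runs had no TDCIPP run of at least 3 members. Examples were 11 DAC members on chromosome 5 from 53332068 to 53445650 and 10 on chromosome 25 from 26271583 to 26389737. TDCIPP members still lay inside both spans, on chromosome 5 from 53350763, and on chromosome 25 from 26341876 and from 26357493. These DAC runs had median densities of 8.66 and 12.9 reads per kb, against 13.4 over all DAC members. The runs named here beyond the widest were picked by their number of members, after the values were seen.

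After TDCIPP, 28 of the 173 wide regions passed the authors' adjusted p of 0.05, 24 of them lower and 4 higher than in DMSO. That is 16.2% of the members (exact 95% interval 11.0 to 22.5, counting error only), where 1.28% of all regions in the authors' deposited table passed. For falls alone the shares were 13.9% of members and 0.916% of all regions, and for rises 2.31% and 0.362%. By the authors' deposited table, the 24 falls had log2 folds from -0.76 to -0.35 (median -0.45) and the 4 rises from 0.43 to 0.46. At an unadjusted p under 0.05 there were 64 members (37%), against 9.93% of all regions. Within 50 kb some falls were neighbours, and joined they made 18 places, while the 4 rises made 4. Without chromosomes 5, 7 and 25 there were 16 calls, among fewer members. Those chromosomes held 5 calls in 15 members, 3 in 9 and 4 in 7. All 173 members lay above level 5.71, below which no region of the authors' deposited table has an adjusted p under 1.

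The steepest fall was on chromosome 3 at 29864920 to 29871437, where mean normalized reads went from 2077 in DMSO to 1226 in TDCIPP. The authors' deposited table gives it a log2 fold of -0.76 at an adjusted p of 9.18e-08, and DMSO had 1.69 times the reads of TDCIPP. The next, on chromosome 2 at 52583234 to 52587761, went from 357 to 231 normalized reads (the authors' deposited table: log2 fold -0.63, adjusted p = 0.0102). On chromosome 21 at 11956225 to 11960621, 315 normalized reads in DMSO stood against 206.5 in TDCIPP (the authors' deposited table: log2 fold -0.61, adjusted p = 0.00309). These steep falls lay on separate chromosomes, each with no other member within 50 kb. Chromosome 22 held a pair, at 18540627 to 18546335 with 2610.3 reads in DMSO and 1783 in TDCIPP, and at 11755887 to 11760201 with 787 and 553. The authors' deposited table gives log2 folds of -0.55 and -0.51 at adjusted p-values of 0.000244 and 0.00498. Chromosome 19 at 16026285 to 16030853 fell from 648 to 443 normalized reads (the authors' deposited table: log2 fold -0.54, adjusted p = 0.000335). All 6 of these steepest falls lay over DAC regions narrower than 4000 bp.

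Falls also reached the densest members. Of 13 members with at least 1024 reads per kb, 8 were called lower and none higher, while 3 had a fold above 0 without passing. Of narrower regions that dense, 48 of 189 (25.4%) were called, 1 of them higher, so falls at this density were not confined to wide regions. The kinds were not matched for level here, with medians of 13.12 for the members and 11.16 for the narrower regions. The 8 called members lay on chromosomes 5, 7 and 25, and the remaining 5 dense members did not pass. Those called on chromosomes 5 and 25 included neighbours within 50 kb, so the 8 are not separate places. Chromosome 7 at 5903940 to 5914183 had 23657 normalized reads in DMSO and 17929 in TDCIPP (the authors' deposited table: log2 fold -0.41, adjusted p = 0.00252). Farther along chromosome 7, the region at 73823479 to 73828306, had 11911 and 8659 reads (the authors' deposited table: log2 fold -0.46, adjusted p = 0.000151). The densest member of all, on chromosome 5 at 822561 to 826892, did not pass (the authors' deposited table: log2 fold -0.20, adjusted p = 0.607). The most dense member was thus not among the falls.

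The 4 rises were alike in size and lay on 4 chromosomes. On chromosome 7 at 55067922 to 55072217, mean normalized reads were 657 in DMSO and 904 in TDCIPP (the authors' deposited table: log2 fold 0.46, adjusted p = 0.036). Chromosome 17 at 46498392 to 46503057, the only TDCIPP member of that chromosome, had 685 and 929 reads (the authors' deposited table: log2 fold 0.44, adjusted p = 0.0386). Chromosome 14 at 20093736 to 20101097 had 4545 and 6123 reads, and chromosome 2 at 19471097 to 19476528 had 1438 and 1951. The authors' deposited table gives both a log2 fold of 0.43, at adjusted p-values of 0.0396 and 0.0455. All 4 lie near the threshold, and none of them passed at an adjusted p under 0.01, where 18 falls were left. With the adjustment recomputed from the authors' unadjusted p over the whole table, 26 members passed at 0.05, and the rises on chromosomes 14 and 2 did not (recomputed adjusted p of 0.051 and 0.0583).

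Whether the high share of calls goes with width or with read number was described by setting members beside regions of 500 to under 4000 bp in classes of 0.5 log2 units, weighted to the members' own spread over the classes. At like level, 11.6% of the narrower regions were called against 16.2% of the members, and 11.6% lies inside the members' interval of 11.0 to 22.5. By direction, falls were then 13.9% of members and 11.0% of narrower regions. Rises were 2.31% and 0.547%, with only 4 rises among the members. At like reads per kb, 4.01% of the narrower regions were called (3.59% lower, 0.42% higher), which lies below the members' interval. The interval takes members as independent, although they made 127 places, so it is too narrow. A member and a narrower region of the same density differ in read number, and those of the same level differ in density, so the comparisons cannot both be matched at once. Below level 8, 0 of 33 members were called, and 164 of 23370 narrower regions (0.702%). At level 12 and above, 10 of 20 members (50%) and 26 of 53 narrower regions (49.1%) were called. In the classes between level 8 and 10 the members stood higher. At level 8 to 9, 3 of 31 were called (9.68%, exact interval 2.04 to 25.8) against 68 of 2605 (2.61%). At level 9 to 10 it was 8 of 38 (21.1%, exact interval 9.55 to 37.3) against 39 of 954 (4.09%). At level 10 to 11 the shares were 11.8% and 10.0%, and at level 11 to 12 the members stood lower, with 3 of 17 (17.6%) against 17 of 68 (25%). With chromosome 4 kept, where another 173 regions are this wide, the difference at like level turned from 4.63 to -0.72 percentage points.

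**Figure D2:**
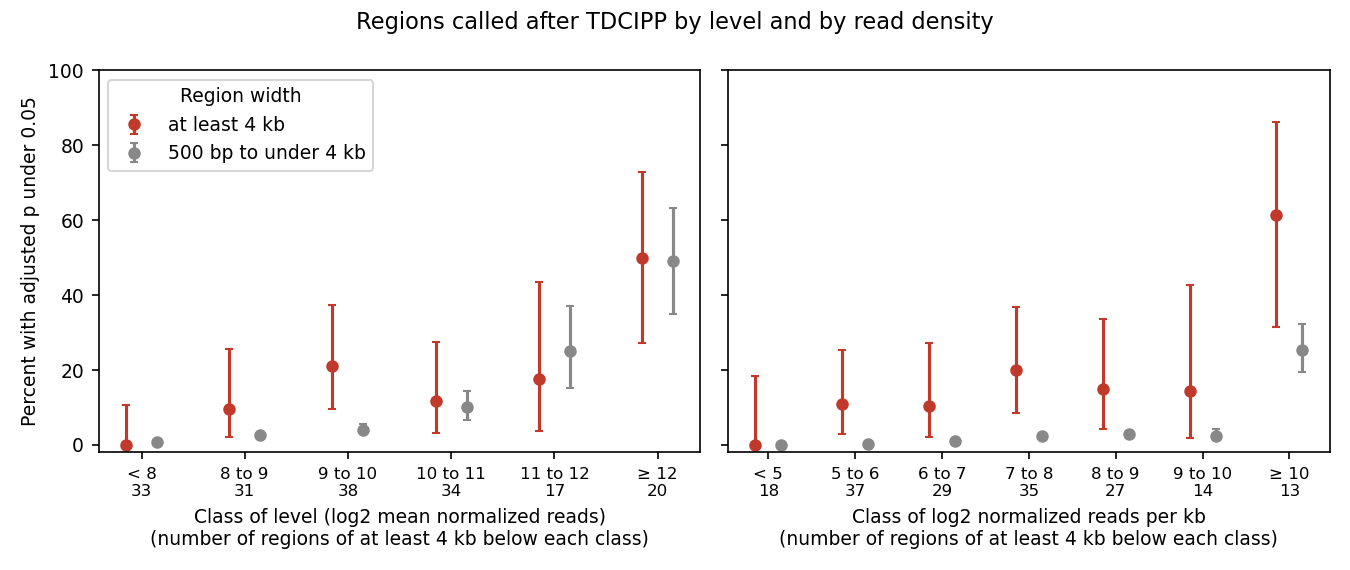
Percent of regions with an adjusted p under 0.05 after TDCIPP, by class of level (left) and of log2 reads per kb (right), for regions of at least 4000 bp (red) and of 500 to under 4000 bp (grey). Bars are exact 95% intervals for counting error only, and the numbers under the classes count the members; at a level of 12 and above both kinds are near 50%.

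Over all members, folds after TDCIPP leaned slightly above 0, although most calls were falls. The median TDCIPP log2 fold of all members was 0.07 (quartiles -0.19 to 0.22) and 97 of 173 (56.1%) were above 0, where the whole of the authors' deposited table had a median of 0.01. Narrower regions had a median of -0.08 at like level, where 33.0% were above 0, and -0.02 at like density. Regions of 2000 to under 4000 bp had a median of -0.07 with 35.0% above 0, so folds did not lean up steadily with width. The upward lean came with runs: members alone within 50 kb had a median of -0.09 and 40 of 104 above 0, while the 69 with a neighbour had 0.18 and 57 above 0. With 1 median per place, the median over places was -0.03, and with members from 3000 bp it was -0.06. Lone members and those with a neighbour also differed in width, with medians of 4634.5 and 5566 bp. By the authors' deposited table, 47 of 100 members under 5000 bp and 21 of 40 of 5000 to under 7000 bp had a fold above 0. Among members of 7000 to under 10000 bp it was 20 of 21, with a median of 0.18, and some of these were neighbours in the same runs. From 10000 bp it was 9 of 12, of which 3 were called, all lower.

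The direction of the TDCIPP fold went with the width of the region in the DAC table. Members that were also wide there had a median log2 fold of 0.17 (quartiles 0.00 to 0.28), with 83 of 111 above 0. Members over narrower DAC regions had a median of -0.16 (quartiles -0.37 to -0.04), with 12 of 59 above 0. The first kind held all 4 rises and 9 falls, the second 15 falls, or 25.4% of its members. Their densities in the TDCIPP table were alike, with medians of 154 and 143 reads per kb, while their median levels were 10.07 and 9.30 and their median widths 5293 and 4487 bp. The difference held at a level of 9 and above (medians 0.18 for 71 members and -0.20 for 38) and below it (0.16 for 40 and -0.15 for 21). Across the 170 pairs, TDCIPP fold and DAC width had a Spearman rho of 0.50, a description over regions that share libraries and partly neighbour each other. This split was noticed in the data and has no test of its own, and the part of level and width in it was otherwise not tested.

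**Figure D3:**
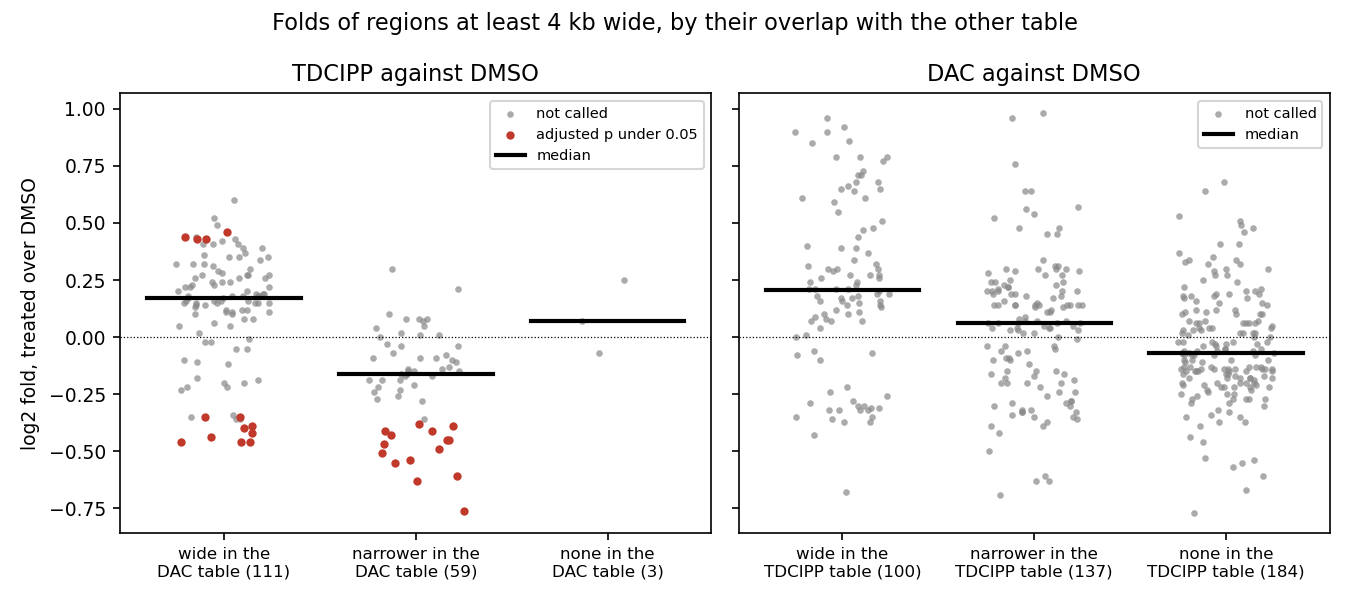
Log2 fold of each region of at least 4000 bp after TDCIPP (left) and DAC (right), grouped by what overlaps it in the other table, with the number of regions under each group. Red points passed an adjusted p of 0.05 and black lines are medians; after TDCIPP the median was 0.17 for regions wide in both tables and -0.16 for those narrower in the DAC table.

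After DAC, no wide region passed, as no region of the authors' deposited table did at any width, with an adjusted p of 1 throughout. At an unadjusted p under 0.05 there were 0 of 421 members, against 1.01% of all regions of the authors' deposited table. That 1.01% is itself below the share expected at a p under 0.05 where nothing changes. A count of 0 members therefore does not show that members were unchanged. That count allows a share of up to 0.872% (exact interval, counting error only). The interval takes members as independent, although they made 290 places, so it is too narrow. At like level the share among narrower regions was 0.248%, which lies inside the interval of the members. With members from 3000 bp there were 2 regions at that p, and with chromosome 4 kept there were 4. The DAC folds of members spread less than those of narrower regions, with an SD over regions of 0.31 against 0.39, and a median size of 0.20 against 0.27.

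Among members with a DAC fold above 0, the 3 with the smallest p lay together in the chromosome 5 run, and none of them passed. At 43129273 to 43139193, mean normalized reads were 982 in DMSO and 1911 in DAC (the authors' deposited table: log2 fold 0.96, unadjusted p = 0.0829). At 43190342 to 43194624 they were 891 and 1746 (the authors' deposited table: log2 fold 0.98, unadjusted p = 0.085). At 43212221 to 43225189 they were 2574 and 5008 (the authors' deposited table: log2 fold 0.96, unadjusted p = 0.0909). Below 0, chromosome 9 at 17200856 to 17205208 had 25.8 reads in DMSO and 15.2 in DAC (the authors' deposited table: log2 fold -0.77, unadjusted p = 0.0872). A pair on chromosome 12, at 42060931 to 42064990 and at 11210185 to 11218017, had log2 folds of -0.67 and -0.69 and unadjusted p-values of 0.139 and 0.189 in the authors' deposited table. These lower members were faint, with 4.72 to 8.81 reads per kb, whereas the higher ones had 145 to 309.

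Weighted over level classes, DAC folds of members lay below those of narrower regions, though not in each class. Members had a median log2 fold of 0.04 (quartiles -0.18 to 0.21) with 229 of 421 above 0, while narrower regions of like level had a median of 0.26 and 76.8% above 0. At like density the medians were 0.04 and 0.06, but the classes differed in both directions. Under 8 reads per kb the medians were 0.175 for 58 members and -0.29 for narrower regions. They were -0.06 and -0.05 at 8 to under 16, and 0.175 and 0.23 at 16 to under 64. At 64 to under 256 they were 0.17 and 0.39, and from 256 reads per kb -0.30 and -0.01. The gap was widest at level 5 to 6, where 57 of 170 members (33.5%) and 4283 of 5392 narrower regions (79.4%) had a fold above 0. Below level 5 it went the other way, with medians of 0.17 for 25 members and 0.01 for narrower regions, and at level 9 and above the medians were alike, at -0.24 for 69 members and -0.24 for narrower regions. Of the 184 members without a TDCIPP counterpart, 144 were of level 5 to under 6. Over all 184, the median DAC fold was -0.07, with 71 above 0. Members over narrower TDCIPP regions had a median of 0.06 and those with a wide counterpart 0.21. As after TDCIPP, lone members had the lower median, -0.08 for 238 of them against 0.16 for 183 with a neighbour. Set beside regions of 2000 to under 4000 bp alone, the gap at like level went from -0.22 to -0.10.

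Most of the densest DAC members had DAC folds below 0 and TDCIPP folds above 0. Of 40 members with at least 256 reads per kb, 32 had a DAC fold below 0, all between -0.42 and -0.20 in the authors' deposited table. Of narrower DAC regions that dense, 65 of 127 had a fold below 0. The kinds were not matched for level here, with medians of 11.94 for the 40 members and 9.26 for the narrower regions. At level 9 and above, 44.9% of 69 members and 31.8% of 88 narrower regions had a DAC fold above 0. The 32 members lay in 18 places on 14 chromosomes, with unadjusted p-values from 0.427 to 0.713. All 32 overlap a TDCIPP region, and all 32 of these had a TDCIPP fold above 0, with a median of 0.34, of which 5 passed. Over all regions of the TDCIPP table, 1.28% passed, and 0.362% passed as rises. Calls also grew with level, and these counterparts were not matched for it. TDCIPP folds above 0 were common among counterparts of all DAC members. They were 73 of 100 for members wide in both tables and 107 of 137 over narrower TDCIPP regions. No like count was made for narrower dense DAC regions, so the opposite signs cannot be called particular to wide ones. On chromosome 10 at 16797849 to 16812531, the member with the highest level of the DAC table, normalized reads were 15608 in DMSO and 13216 in DAC (the authors' deposited table: log2 fold -0.24). Its TDCIPP counterpart was above 0 (the authors' deposited table: log2 fold 0.24, unadjusted p = 0.0415). On chromosome 14 at 20102335 to 20111996, the DAC fold was -0.29 and that of its TDCIPP counterpart 0.36, with unadjusted p-values of 0.597 and 0.00199 in the authors' deposited tables. The dense members with a DAC fold above 0 were 8, among them those of chromosome 5 at 43190342 and 43212221, where TDCIPP folds were -0.49 and -0.44 in the authors' deposited tables.

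Set side by side, the folds of both compounds had opposite signs at 94 of 170 wide regions. No like count was made over narrower regions, so this share cannot be called particular to wide ones. Of 170 TDCIPP members with a DAC counterpart, 66 were above 0 in both, 66 were below 0 with TDCIPP and above 0 with DAC, 28 were the reverse, 8 were below 0 in both and 2 had a fold of 0. Pearson's r of the folds was -0.35 and Spearman's rho -0.31 across these 170 regions, which are not independent. Each compound had control libraries of its own. DAC folds above 0 were common, at 59.8% of all regions of the authors' deposited table. Among counterparts of TDCIPP members they were 86 of 111 wide and 47 of 59 narrower ones. All 24 TDCIPP falls had a DAC fold above 0 at their counterpart, from 0.08 to 0.96 (median 0.51) by the authors' deposited table. The 4 TDCIPP rises had DAC folds from -0.43 to -0.31. None of these DAC folds passed, the smallest unadjusted p being 0.0909.

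**Figure D4:**
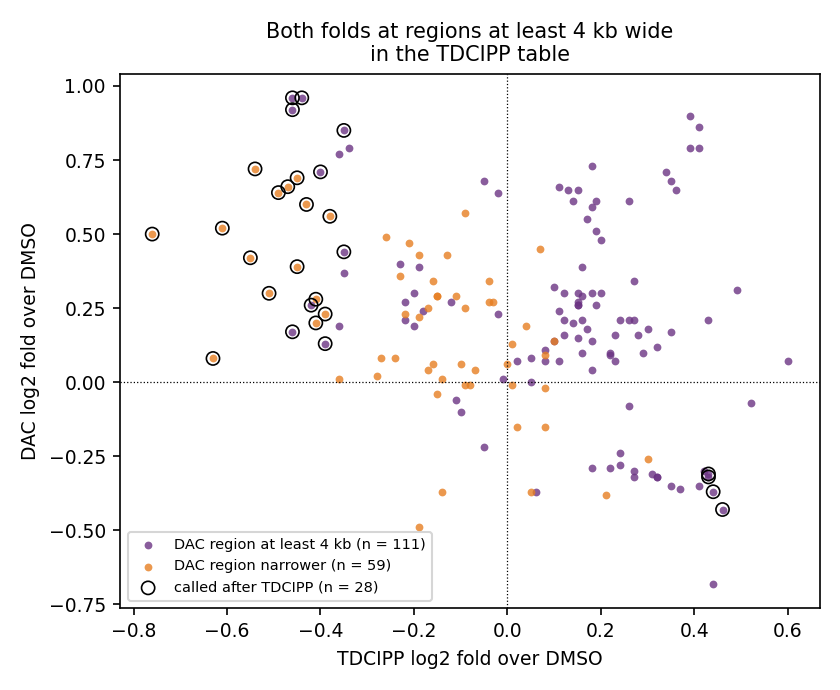
TDCIPP log2 fold (horizontal) against the DAC log2 fold of the overlapping region (vertical) at 170 regions of at least 4000 bp in the TDCIPP table, coloured by whether the DAC region is also that wide, with called regions circled. The 24 circled falls lie in the upper left and the 4 circled rises in the lower right.

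Within a run, folds were close to each other, and runs differed in their pattern. In runs of at least 3, the SD of the fold within runs was 0.07 after TDCIPP and 0.12 after DAC, against 0.26 and 0.30 over all these members. Folds shared 1 sign in 7 of 8 TDCIPP runs (6 above 0, 1 below) and in 23 of 27 DAC runs (19 above 0, 4 below). The chromosome 5 run had folds below 0 with TDCIPP and above 0 with DAC throughout: 7 TDCIPP folds ran from -0.46 to -0.34, of which 5 passed, and 9 DAC folds from 0.64 to 0.98 in the authors' deposited tables. Its members differ greatly in density, from 60.3 to 2153 reads per kb, yet little in fold. Its widest member went from 2937 to 2226 normalized reads with TDCIPP (adjusted p = 0.0114) and from 605 to 982 with DAC in the authors' deposited tables. The chromosome 12 run from 41377680 to 41408376 was above 0 with both, with 4 TDCIPP folds from 0.35 to 0.41 and 5 DAC folds from 0.68 to 0.90 in the authors' deposited tables, none of which passed. On chromosome 24, 11 TDCIPP folds from 0.15 to 0.43 and 9 DAC folds from 0.09 to 0.26 were all above 0 in the authors' deposited tables, and none passed. The widest domain, on chromosome 20 at 25759406 to 25824004, had 2135 reads in DMSO and 2978 in TDCIPP, and did not pass (the authors' deposited table: log2 fold 0.49, adjusted p = 0.546). For its DAC counterpart the authors' deposited table gives a log2 fold of 0.31 at an unadjusted p of 0.521. The domain on chromosome 22 from 21190756 had log2 folds of 0.36 with TDCIPP (adjusted p = 0.18) and 0.65 with DAC in the authors' deposited tables. Members of a run are neighbours and share their source, so their agreement is not replication.

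**Figure D5:**
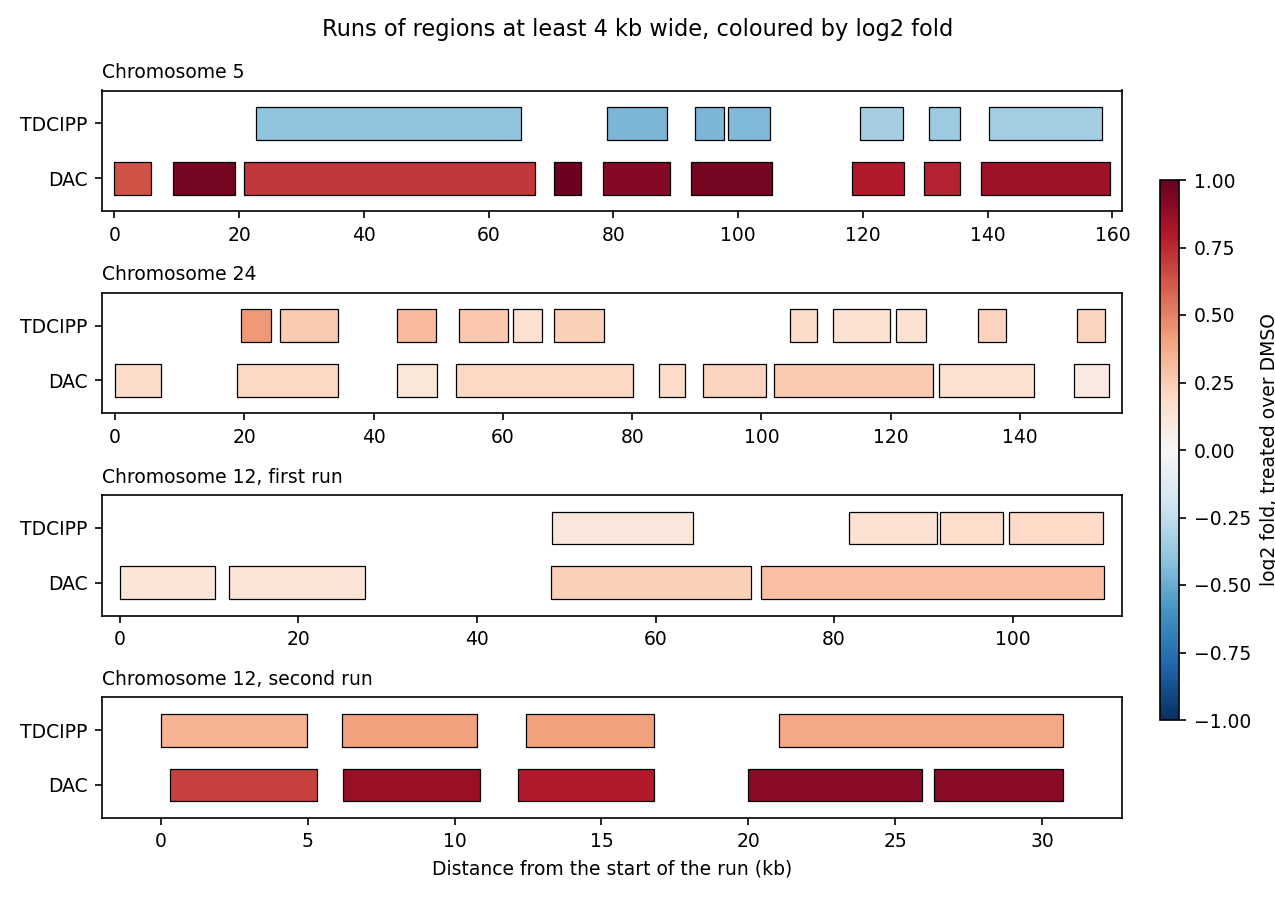
Regions of at least 4000 bp in 4 runs on chromosomes 5, 24 and 12, drawn to scale by distance from the start of the run (kb), with TDCIPP regions above DAC regions and colour giving the log2 fold of treated over DMSO. The chromosome 5 run is below 0 with TDCIPP and above 0 with DAC, the other runs are above 0 with both.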

How the data were processed

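ATAC-seq reads had been processed with Bowtie2, Picard, MACS2, deepTools and DiffBind on GRCz11, per the submitters' processing notes, without versions. The handling of duplicates, of reads with several matches and of library sizes is, beyond these names, not given in the sources used here. Per the file headers, each of 2 deposited tables holds group levels and folds on a log2 scale, the p-value of each region before and after adjustment, and 0 columns for single libraries. In the DAC table's header the treated columns carry the name 5AzaC, and the labels' name is used. Depth per library is therefore unknown here, and no test across replicates was run. In both tables the deposited log2 fold equals treated minus DMSO level within 0.01.

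Width, reads (2 to the power of the level) and reads per kb were computed with Python 3.11.15, pandas 2.3.3, numpy 2.4.6 and scipy 1.17.1. Calls are the authors' adjusted p under 0.05, and a Benjamini-Hochberg adjustment recomputed over the whole table was an alternative. Regions of 500 to under 4000 bp were weighted to the members' counts in classes of 0.5 log2 units, checked on simulated data. Left out were 173 TDCIPP and 265 DAC regions of this width on chromosome 4, and 47 and 135 on alternate or unplaced sequence. For like level after DAC, 9 members had no comparison region. Overlap needed 1 shared base, and the region with the most shared bases was the counterpart. Named regions follow a rule: the 5 widest, 3 of highest level, 3 of highest and lowest density, the 6 largest called changes in each direction, the 3 smallest p after DAC in each direction, and 3 on either side of the width minimum. The members and lists were chosen with earlier results of these data known.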

Additional observations from a re-analysis of the deposited data

How the results depend on the processing

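No paired analysis was possible because both tables give group means alone, and leaving out a library was not run for want of library values. Of 86 alternative values, 55 stayed within the interval or 1.5-fold range of the reported one and 31 did not; the cause was not tested beyond what each setting removes or adds. Calls after TDCIPP (28) went to 18 at an adjusted p under 0.01, with 0% higher. They went to 66 and 13 with minimum widths of 3000 and 5000 bp, and to 16 without chromosomes 5, 7 and 25. The number of members changed with width and chromosomes, so these counts are not shares. For those settings the calls minus like-level percent was 3.31, 3.38 and 5.47, within the interval of the reported value. DAC regions at an unadjusted p under 0.05 (0) went to 2 from 3000 bp and 4 with chromosome 4. The calls minus like-level percent (4.63) went to -0.72 and minus like-density percent (12.2) to 4.90 with chromosome 4. From 3000 and 5000 bp, the median TDCIPP fold (0.07) became -0.06 and 0.13, minus like-level (0.15) 0.00 and 0.22, minus like-density (0.09) -0.05 and 0.15, the median DAC fold (0.04) -0.05 and 0.14, minus like-level (-0.22) -0.30 and -0.12, minus like-density (-0.02) -0.08 and 0.04, and the gap between members wide in both tables and narrower in the DAC table (0.33) 0.18 and 0.52. That gap was 0.38 at a level of at least 9. With 1 median per place, the TDCIPP and DAC medians were -0.03 and -0.06, and the DAC median was 0.10 with chromosome 4 and -0.06 after its table's median was taken off. With comparison regions of 2000 to under 4000 bp, TDCIPP minus like-density was 0.15, and DAC minus like-level and like-density were -0.10 and 0.05. Settings on chromosomes 5, 7 and 25, places and the gap were chosen after seeing the data. The depth of each library is unknown here, so what it limits cannot be given.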
